A study of Mus musculus with 16 samples.

Results

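The albumin gene family on mouse chromosome 5 was described by its DNase hypersensitive sites (DHS), stretches of open chromatin where DNase I cuts readily, in livers of 2 strains and both sexes. The members were Alb, Afp, Afm and Gc, and every DHS that touched one of these genes or the 20 kb on either side of it was taken. After DHS of the 4 deposited lists that shared at least 1 bp were joined, 32 of 51482 DHS regions met this rule. The lists came from C57BL/6J (B6), the strain of the reference genome, and CAST/EiJ (CAST), a strain derived from wild mice. Livers were from male and female mice 8 weeks of age, and 32 units of DNase I were used on the purified nuclei. The 4 groups were male B6, female B6, male CAST and female CAST, each with 4 libraries that the authors merged before DHS were called, so each group gave 1 list and no value below has a replicate error or a test.

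Albumin is the main protein of plasma and carries fatty acids, hormones and drugs. Its relatives arose by gene duplication and are secreted by hepatocytes: alpha-fetoprotein (Afp) is the fetal counterpart, high before birth and silenced in the adult liver, afamin (Afm) binds vitamin E, and the vitamin D-binding protein (Gc) carries vitamin D and its metabolites. Transcription of Alb and Afp in hepatocytes is known to be driven by factors that include C/EBP and FOXA proteins bound at the promoters and at upstream enhancers, while ZHX2 and ZBTB20 are known to keep Afp low after birth.

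In mm9, Alb lies at chr5:90889915-90905629, Afp at chr5:90919740-90937933 and Afm at chr5:90947958-90982569, in 1 row on the plus strand. The start of Afp is 14110 bp beyond the end of Alb. Gc lies at chr5:89846549-89886790 on the minus strand, and its transcription start is 1003 kb from that of Alb. The windows of Alb, Afp and Afm overlapped, so 1 region could count for more than 1 gene. The Afm window also reached into 5830473C10Rik at chr5:90990244-91007024, a gene that RefSeq names Albfm1, an albumin superfamily gene that was not a member here.

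The 150 bases upstream of each member's transcription start in mm9 are shown because 3 of the 4 starts lay in a region found in every list and 1 did not. Each is written along the strand of its gene, and capitals mark matches on either strand to the letters searched for C/EBP (TTGCNNAA) and FOXA (TGTTTAC or TGTTTGC). No match to the letters for HNF4 (CAAAGTCCA) or STAT (TTCNNNGAA) was present in them.
Alb, chr5:90889765-90889914, plus strand: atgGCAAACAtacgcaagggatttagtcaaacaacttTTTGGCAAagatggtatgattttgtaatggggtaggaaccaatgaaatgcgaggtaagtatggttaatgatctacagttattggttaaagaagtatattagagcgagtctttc
Afp, chr5:90919590-90919739, plus strand: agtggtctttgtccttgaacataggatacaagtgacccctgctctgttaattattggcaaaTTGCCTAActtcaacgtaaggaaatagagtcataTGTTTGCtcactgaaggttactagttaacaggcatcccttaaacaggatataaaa
Afm, chr5:90947808-90947957, plus strand: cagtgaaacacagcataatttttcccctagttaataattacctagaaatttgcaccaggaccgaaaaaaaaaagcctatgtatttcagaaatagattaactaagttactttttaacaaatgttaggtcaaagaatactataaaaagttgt
Gc, chr5:89886791-89886940, minus strand: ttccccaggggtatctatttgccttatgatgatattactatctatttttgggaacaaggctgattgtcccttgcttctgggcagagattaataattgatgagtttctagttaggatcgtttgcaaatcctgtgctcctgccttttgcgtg

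The Alb and Afp sequences each held 1 match to C/EBP and 1 to FOXA, and the Afm and Gc sequences held none. Among 22350 promoters of protein-coding genes of the same length, 5.0% held the C/EBP letters and 3.84% the FOXA letters. A match describes the letters only and does not show that a factor was bound.

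At Alb the promoter DHS was found in all 4 lists. Its fold enrichment, the reads piled up at the summit over the local background that MACS2 set there, was 5.16 in B6 males, 4.48 in B6 females, 4.84 in CAST males and 3.69 in CAST females. The 95% counting interval was 4.54 to 5.83 in male B6 and 2.95 to 4.57 in female CAST, the highest and the lowest of the 4, and these overlapped. Its summit lay 28 bp upstream of the Alb start in B6 males, 19 bp in B6 females, 30 bp in CAST males and 103 bp in CAST females. Within their lists these summits ranked at the 72.7th, 73.1st, 65.0th and 41.1st percentile of fold enrichment. Nuclei of whole liver were measured together, so fewer nuclei with an open site and a less open site in each nucleus cannot be told apart.

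Afp had no DHS within 500 bp of its start in any list, although its promoter sequence held the same 2 kinds of letters as that of Alb. The nearest region ended 4429 bp upstream of the start, with its summit 4.9 kb upstream. That region was found at 2.87 in B6 males, 3.31 in CAST males and 2.80 in CAST females, and not in B6 females. Its counting interval was widest in female CAST, from 1.83 to 4.11 on 24 reads. Inside the gene, 1 intronic region 10.1 kb downstream of the start was found in female B6 at 2.21 and in male CAST at 2.30, and not in the other two lists.

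The Afm promoter DHS was found in all 4 lists at 6.31 in B6 males, 4.61 in B6 females, 7.05 in CAST males and 5.01 in CAST females. By fold enrichment it was the highest promoter of the family in every list. Both male values exceeded both female values, but within each strain the counting intervals overlapped, 5.37 to 7.36 in B6 males with 3.71 to 5.67 in B6 females and 6.12 to 8.07 in CAST males with 3.89 to 6.35 in CAST females. Over regions shared by both lists of a strain, male values ran higher than female values, and with that shift removed the log2 ratio of males to females at this promoter was 0.05 in B6 and 0.24 in CAST, within 1.5-fold. Gc, the fourth member, had a promoter DHS in all 4 lists at 3.83 in B6 males, 3.21 in B6 females, 3.54 in CAST males and 3.13 in CAST females. By fold enrichment it was the lowest of the 3 promoters with a DHS in each list. Its 4 counting intervals overlapped one another, with 2.46 as the lowest and 4.38 as the highest bound. By reads piled up at the summit, not divided by the local background, Alb was the highest promoter in every list. In B6 males, B6 females, CAST males and CAST females the reads were 251, 139, 215 and 83 at Alb. They were 160, 88, 205 and 66 at Afm and 210, 104, 204 and 71 at Gc.

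**Figure D1:**
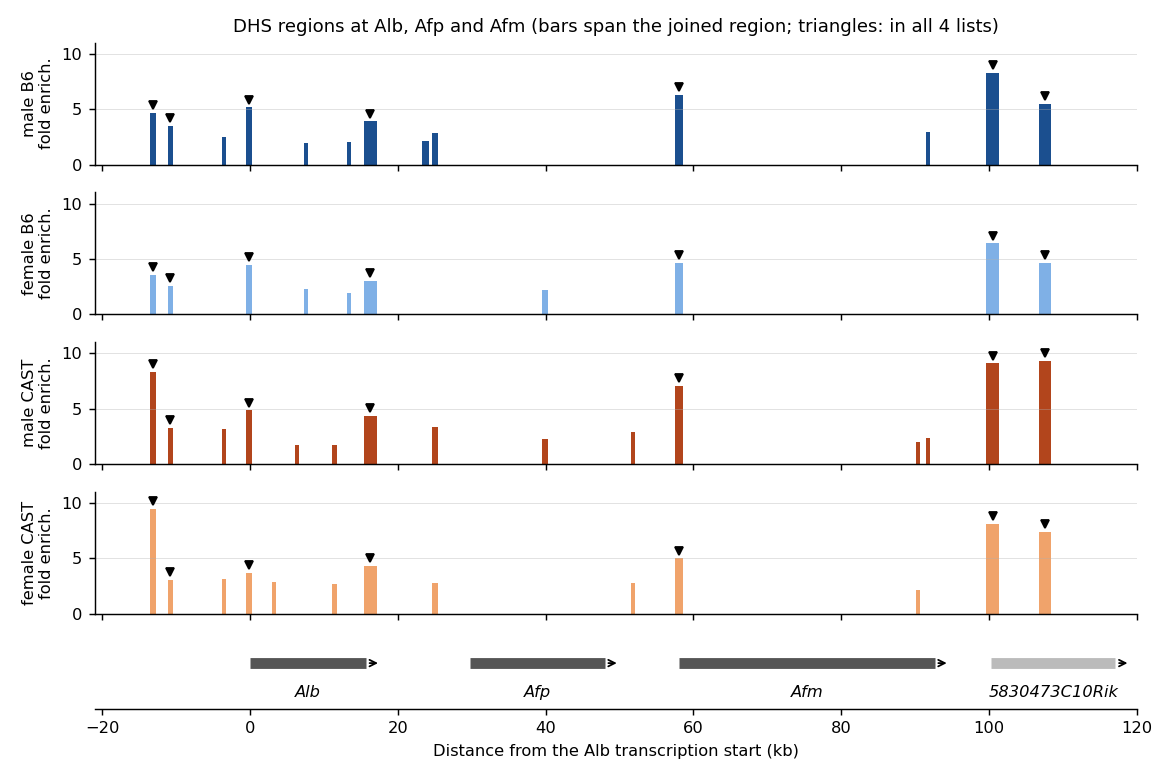
Fold enrichment at the summit (vertical axis of each panel) of DHS regions against distance from the Alb start in kb, 1 panel for each list, with the genes drawn below, arrows in the direction of transcription and bars as wide as the joined region. Triangles mark regions found in all 4 lists. The Afp start has no bar in any list, and the bar 13.2 kb upstream of Alb is 8.30 and 9.45 high in the CAST lists against 4.68 and 3.57 in the B6 lists.

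The windows held 12 regions for Alb, 8 for Afp, 7 for Afm and 13 for Gc. Over 22350 protein-coding genes the median was 2, and 97.4% of genes had fewer regions than Alb, 91.5% fewer than Afp, 87.8% fewer than Afm and 98.0% fewer than Gc. Of these regions, 4 at Alb, 2 at Afp, 3 at Afm and 4 at Gc were found in all 4 lists. All 8 regions counted for Afp also lay in the window of Alb or of Afm. The 2 of them in all 4 lists were the region at the 3′ end of Alb and the Afm promoter. Longer genes have wider windows, and per 100 kb of window Alb held 21.5 regions, Gc 16.2, Afp 13.7 and Afm 9.38, beside a median of 3.25 over genes.

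**Figure D2:**
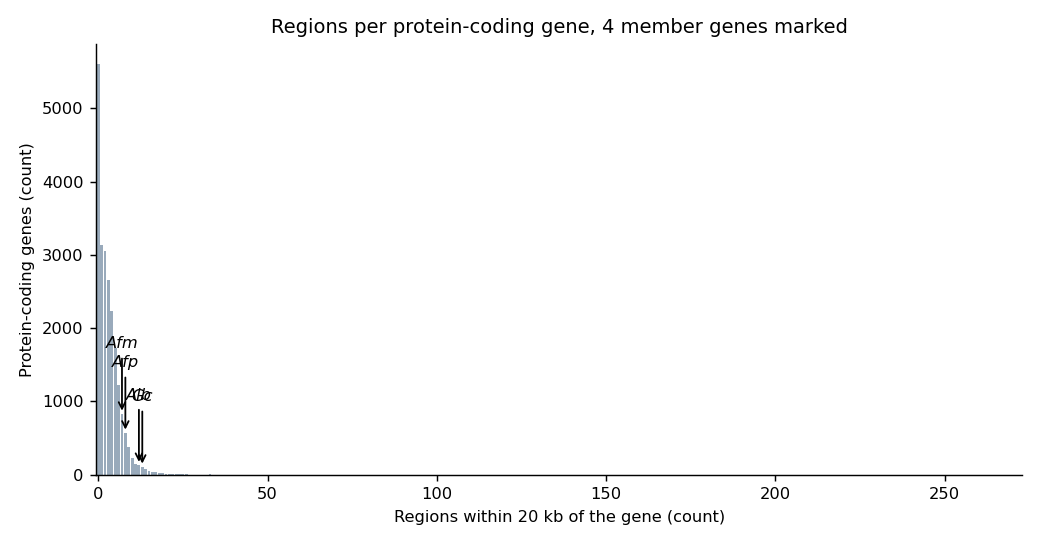
Number of protein-coding genes (vertical axis) against the number of DHS regions within 20 kb of the gene (horizontal axis), with arrows at the 4 member genes. Alb with 12 regions and Gc with 13 lie far to the right of the median of 2.

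Across the family, 21 regions were found in B6 males, 14 in B6 females, 25 in CAST males and 19 in CAST females. In all 4 lists were 11 of the 32 regions, or 34.4%, beside a background of 35.6% of all regions, so presence in every list was about as frequent as elsewhere. The other 21 were found in 1 list (10 regions), 2 lists (8) or 3 lists (3), or 31.2%, 25.0% and 9.38% of the family, beside 35.2%, 17.2% and 12.1% of all regions. By position, 10 regions were intergenic, 9 intronic, 8 overlapped a coding exon and 5 an exon with untranslated sequence. The regions in all 4 lists ranged higher and wider, at 2.59 to 9.45 and 383 to 1743 bp, against 1.76 to 3.31 and 246 to 897 bp for the rest. No region of the family reached the 90th percentile of fold enrichment in every list. The nearest to it was the region over the start of 5830473C10Rik, 42.0 kb downstream of the Afm start, at 8.26 in B6 males, 6.40 in B6 females, 9.08 in CAST males and 8.11 in CAST females, or percentiles of 89.9 to 91.9. It was named after its values were seen. Its 4 summits lay within 23 bp of one another, the closest of the 11 regions in all 4 lists. The median spread of summits was 165 bp over these 11 and 91 bp over all 18309 regions in all 4 lists.

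**Figure D3:**
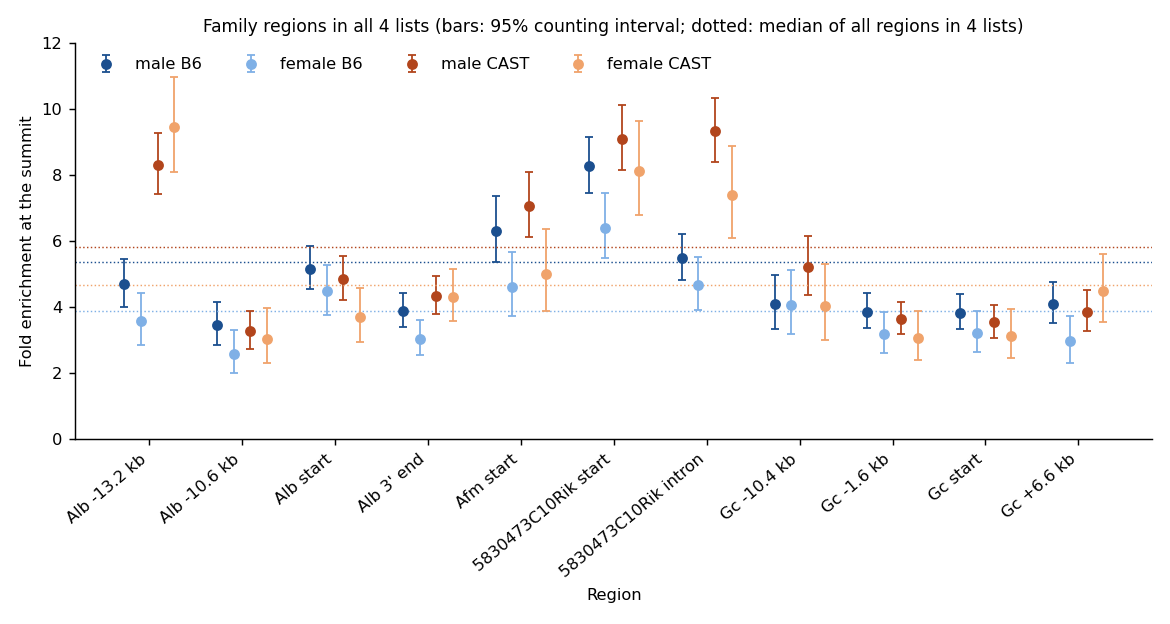
Fold enrichment at the summit (vertical axis) in each list, with 95% Poisson counting intervals, for the 11 family regions found in all 4 lists (horizontal axis), beside dotted lines at each list's median over all regions found in 4 lists (5.35 for B6 males, 3.88 for B6 females, 5.80 for CAST males, 4.66 for CAST females). Only at the region 13.2 kb upstream of Alb do both CAST intervals lie wholly above both B6 intervals.

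Measured against their own lists, these 11 regions ranked lower by fold enrichment than by the authors' q-value. Their median percentile by fold enrichment was 59.7 in B6 males, 56.9 in B6 females, 65.0 in CAST males and 54.0 in CAST females, while by −log10 q it was 75.4, 65.4, 77.8 and 68.2 in the same order. Over all regions in 4 lists it was 74.4, 63.0, 74.6 and 60.4 by fold enrichment. By −log10 q it was 75.0, 63.3, 75.2 and 60.7 over those regions. The local background, which divides the fold enrichment, was more than 1.5 times the genome-wide background at 11 of the 11 family regions in male B6, against 61.0% of all regions in 4 lists. In female B6 it was so at 9, in male CAST at 11 and in female CAST at 10, beside 33.3%, 60.1% and 40.5%.

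The sequence under 5 regions is given next, as mm9 sequence within 100 bases of the summit in B6 males (for counts over all regions, in the first list that held the region), plus strand. These are the 2 family regions past 1.5-fold between strains in at least 1 sex, the FOXA match upstream of Alb, the region nearest to Afp and the pair of C/EBP matches upstream of Gc. Capitals mark the letters above and, in the 2 regions past 1.5-fold between strains, unbroken GT runs of at least 20 bases.
Alb 13.2 kb upstream, chr5:90876591-90876791: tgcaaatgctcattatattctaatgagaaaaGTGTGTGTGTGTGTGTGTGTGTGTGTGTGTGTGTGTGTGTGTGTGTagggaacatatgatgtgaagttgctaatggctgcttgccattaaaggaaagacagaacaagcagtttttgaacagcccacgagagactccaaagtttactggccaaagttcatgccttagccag
Alb 10.6 kb upstream, chr5:90879201-90879401: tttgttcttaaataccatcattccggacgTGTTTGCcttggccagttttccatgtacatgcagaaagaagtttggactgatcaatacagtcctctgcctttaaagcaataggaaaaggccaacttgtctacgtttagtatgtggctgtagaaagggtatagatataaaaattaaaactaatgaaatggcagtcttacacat
Afp 4.9 kb upstream, chr5:90914716-90914916: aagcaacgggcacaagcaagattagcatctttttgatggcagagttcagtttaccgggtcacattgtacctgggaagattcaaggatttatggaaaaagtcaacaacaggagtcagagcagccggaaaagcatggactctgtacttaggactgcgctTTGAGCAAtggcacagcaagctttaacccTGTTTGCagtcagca
Afm 49.3 kb downstream, chr5:90997149-90997349: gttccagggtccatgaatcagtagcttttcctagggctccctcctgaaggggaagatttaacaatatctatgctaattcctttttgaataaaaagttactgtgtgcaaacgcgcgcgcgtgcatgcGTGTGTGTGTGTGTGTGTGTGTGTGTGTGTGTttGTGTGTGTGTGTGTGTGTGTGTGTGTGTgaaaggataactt
Gc 1.6 kb upstream, chr5:89888337-89888537: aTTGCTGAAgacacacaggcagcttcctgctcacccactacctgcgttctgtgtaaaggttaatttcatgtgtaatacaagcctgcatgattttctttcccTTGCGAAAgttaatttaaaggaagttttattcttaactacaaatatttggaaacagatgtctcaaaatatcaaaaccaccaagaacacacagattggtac

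In such windows around the summit the C/EBP letters were present at 6 of 32 family regions, FOXA at 3, STAT at 3 and HNF4 at 0. The shares over all 51482 regions were 11.7%, 9.70%, 6.81% and 1.08%. With so few regions these counts were not set apart from the rest of the genome. The region over the start of 5830473C10Rik, not shown above, held 2 FOXA matches and 1 STAT match.

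Between strains, the largest difference of the family was at the region 13.2 kb upstream of Alb, which was higher in CAST in both sexes. It read 4.68 in B6 males, 3.57 in B6 females, 8.30 in CAST males and 9.45 in CAST females. The intervals were 3.98 to 5.46 and 2.86 to 4.42 in the B6 lists and 7.42 to 9.26 and 8.09 to 10.97 in the CAST lists, with no overlap between strains. After the median ratio of all shared regions was set to 0, the log2 ratio of CAST to B6 was 0.75 in males and 1.15 in females. Both were past the 1.5-fold limit. Scaled by a running median over regions of like level these were 0.75 and 1.12, and from the excess of reads over background 1.20 and 1.69.

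A second region, in an intron of 5830473C10Rik and 49.3 kb downstream of the Afm start, was past the limit in males. It read 5.48 in B6 males, 4.66 in B6 females, 9.33 in CAST males and 7.38 in CAST females, so that both CAST values were above both B6 values. The scaled log2 ratio of CAST to B6 was 0.69 in males and 0.42 in females, and the female ratio was within the limit.

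Both regions carried a GT run in the reference sequence near the summit of B6 males, of 46 bases upstream of Alb and of 32 bases, followed by a further 28, in the 5830473C10Rik intron. A run of 20 bases or more in this window was present at these 2 of 32 family regions and at 0.921% of all regions. The run and its length were chosen after these sequences were seen. Upstream of Alb the CAST summits lay 333 bp from the run in males and 290 bp in females, against 24 and 79 bp for the B6 summits. In the intron, the nearest run was 422 bp from the summit of CAST males and 26 bp from that of B6 males, while the summits of both female lists fell on the same base, 253 bp from it. The mm9 sequence at the male CAST summits, plus strand, held no run and none of the letters searched.
Alb upstream, male CAST summit, chr5:90876900-90877100: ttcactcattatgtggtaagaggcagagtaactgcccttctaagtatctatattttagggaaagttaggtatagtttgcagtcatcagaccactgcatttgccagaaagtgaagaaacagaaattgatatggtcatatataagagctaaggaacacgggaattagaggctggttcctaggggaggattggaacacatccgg
5830473C10Rik intron, male CAST summit, chr5:90997658-90997858: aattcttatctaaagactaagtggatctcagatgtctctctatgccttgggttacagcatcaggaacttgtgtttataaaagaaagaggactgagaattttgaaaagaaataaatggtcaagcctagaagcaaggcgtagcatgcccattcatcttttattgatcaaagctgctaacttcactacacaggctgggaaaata

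Over the genome, regions with a run were past the limit with CAST higher in 7.60% of 263 cases in males and 6.21% of 145 in females, against 6.67% and 4.96% of regions without one. With B6 higher the shares were 7.60% in males and 4.83% in females with a run, against 4.46% and 3.41% without, so both shares were higher with a run. Between the sexes of B6, males were past the limit in 5.47% of regions with a run and 2.60% without. Females of B6 were past it in 2.99% and 2.59%. In CAST the shares were 3.16% and 3.31% with males higher, and 3.16% and 2.56% with females higher. None of these shares was tested. The runs were read in mm9 only, and their part in the strain difference of these 2 regions was not tested.

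Counted over the family, CAST was more than 1.5-fold higher at 2 of the 16 regions shared by the male lists, beside a background of 6.68%, and at 1 of the 11 shared by the female lists, beside 4.97%. B6 was past the limit at 0 of 16 in males, background 4.49%, and at 0 of 11 in females, background 3.42%. Nearest to the limit on that side in females was the Alb promoter, with a scaled log2 ratio of CAST to B6 of -0.53, which was -0.17 in males, where the region 33.8 kb downstream of the Afm start was lowest at -0.42. The family median was 0.03 in males and -0.01 in females. Of the union of each pair of lists, 53.3% was shared in males and 50.0% in females, against 60.0% and 59.1% over all regions. In males, 9 of 30 regions were in the CAST list only, background 20.9%, and 5 in the B6 list only, background 19.1%. In females, 8 of 22 were in the CAST list only, background 18.3%, and 3 in the B6 list only, background 22.6%.

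**Figure D4:**
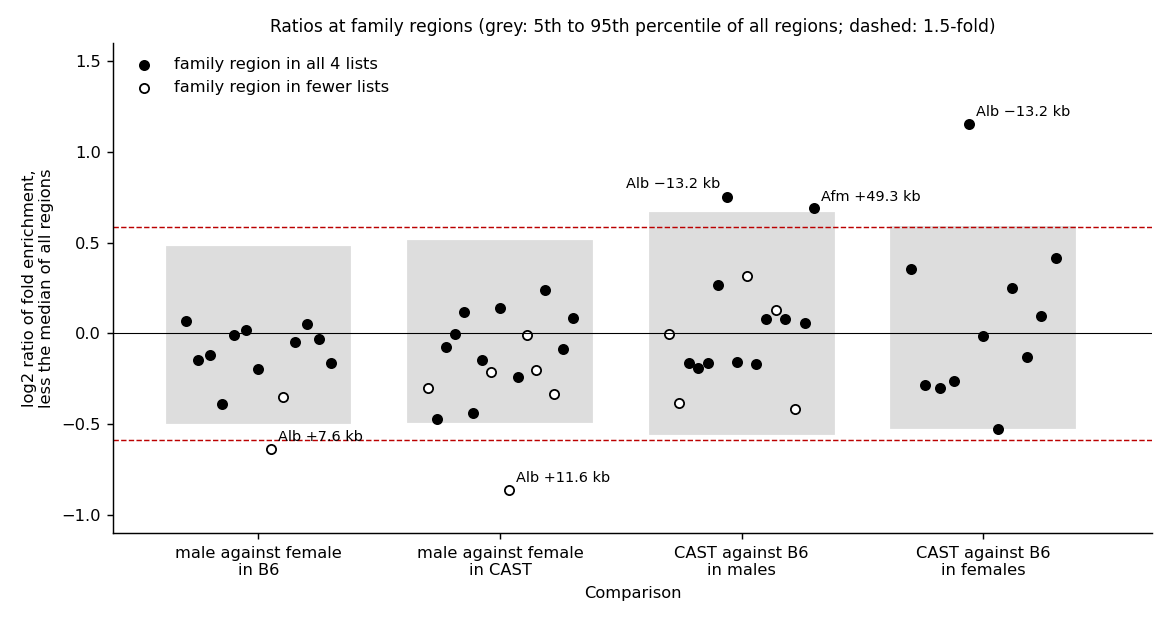
Scaled log2 ratio of fold enrichment (vertical axis) at every family region found in both lists of a comparison (horizontal axis, 4 comparisons), filled where the region was in all 4 lists and open otherwise. Grey bands span the 5th to 95th percentile of all regions and dashed lines mark 1.5-fold. The region at Alb −13.2 kb lies above the band in both strain comparisons, at 0.75 and 1.15.

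In both sexes of B6 but neither of CAST were 2 regions, and in both sexes of CAST but neither of B6 were 3, beside 3.32% and 3.62% of all regions. Both B6 regions lay inside Alb over coding exons, 7.6 kb downstream of the start at 1.91 in males and 2.24 in females and 13.3 kb downstream at 2.00 and 1.93. The CAST regions lay over a coding exon of Alb 11.6 kb downstream, at 1.76 in males and 2.69 in females, 6.2 kb upstream of Afm at 2.89 and 2.80, and over a coding exon of Afm 32.5 kb downstream of its start at 1.99 and 2.11. All 10 values lay at the 31.4th percentile of their list or lower, and absence from a list says only that a site did not pass its threshold.

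Inside the Alb gene, beyond its promoter, there were 5 regions, each over a coding exon. Their 8 peaks had fold enrichments of 1.76 to 2.91, at percentiles of 0.336 to 17.6, on a local background of 2.71 to 4.49 times the genome-wide value. The local background was thus high wherever a peak was called inside the gene, and the summits above it were low by fold enrichment. By −log10 q, 2 of the 8 peaks, both in CAST females, were at the 53.1st and 51.0th percentile. Just beyond the gene, the region at its 3′ end was found in all 4 lists at 3.88 in B6 males, 3.04 in B6 females, 4.33 in CAST males and 4.30 in CAST females. Its summit in male B6 lay 750 bp past the annotated end.

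Between the sexes, no family region was more than 1.5-fold higher in males in either strain, and 1 in each strain was more than 1.5-fold higher in females. In B6 this was 0 of 13 shared regions with males higher, background 2.62%, and 1 of 13 with females higher, background 2.6%. In CAST it was 0 of 17, background 3.31%, and 1 of 17, background 2.56%. Both were exon regions inside Alb. The region 7.6 kb downstream had a scaled log2 ratio of males to females in B6 of -0.63, and the region 11.6 kb downstream one of -0.86 in CAST. Against the running median they were -0.23 and -0.52, within the limit, and from the excess of reads over background -1.02 and -1.69, past it.

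At shared regions male values were the higher, although over whole lists the median fold enrichment was 3.49 in B6 males, 3.28 in B6 females, 3.74 in CAST males and 4.06 in CAST females. The median log2 ratio over all shared regions, before scaling, was 0.40 for males to females in B6 and 0.25 in CAST, and 0.08 for CAST to B6 in males and 0.25 in females. Relative to this shift the family median of males to females was -0.12 in B6 and -0.15 in CAST, and without scaling both turned positive, at 0.28 and 0.10. The 4 comparisons share lists, each list entering 2 of them.

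By presence, 8 of 22 regions in B6 were in the male list only, background 36.4%, and 1 in the female list only, background 5.13%. In CAST, 8 of 27 were in the male list only, background 40.3%, and 2 in the female list only, background 3.9%. Shared were 59.1% in B6 and 63.0% in CAST, beside 58.4% and 55.8% over all regions. Found in the male lists only, in both strains, were 2 regions, beside 9.38% of all regions, and in the female lists only, in both strains, 0, beside 0.0622%. The male regions were intronic in Gc, 8.3 kb downstream of its start at 2.64 in B6 and 2.14 in CAST, and over an exon of Afm with untranslated sequence, 33.8 kb downstream of its start at 2.93 and 2.31. Female lists were shorter, with 26271 and 24888 DHS against 38751 and 39562 in male lists, and their genome-wide background was 13.9 and 7.94 reads against 15.4 and 14.3.

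At Gc the 4 regions in all lists lay near the promoter end of the gene. Besides the promoter, the region 1.6 kb upstream read 3.86 in B6 males, 3.18 in B6 females, 3.64 in CAST males and 3.06 in CAST females, and was wide, at 1146 to 1579 bp. The region 10.4 kb upstream read 4.09, 4.06, 5.19 and 4.02 in the same order, with summits 747 bp apart at most. The intronic region 6.6 kb downstream read 4.09, 2.96, 3.86 and 4.49, the only one of the Gc regions in all lists where female CAST was the highest. None of these was past 1.5-fold in any comparison. The remaining 9 regions of the Gc window were found in 1 to 3 lists, and 7 of them in 1 list.

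**Figure D5:**
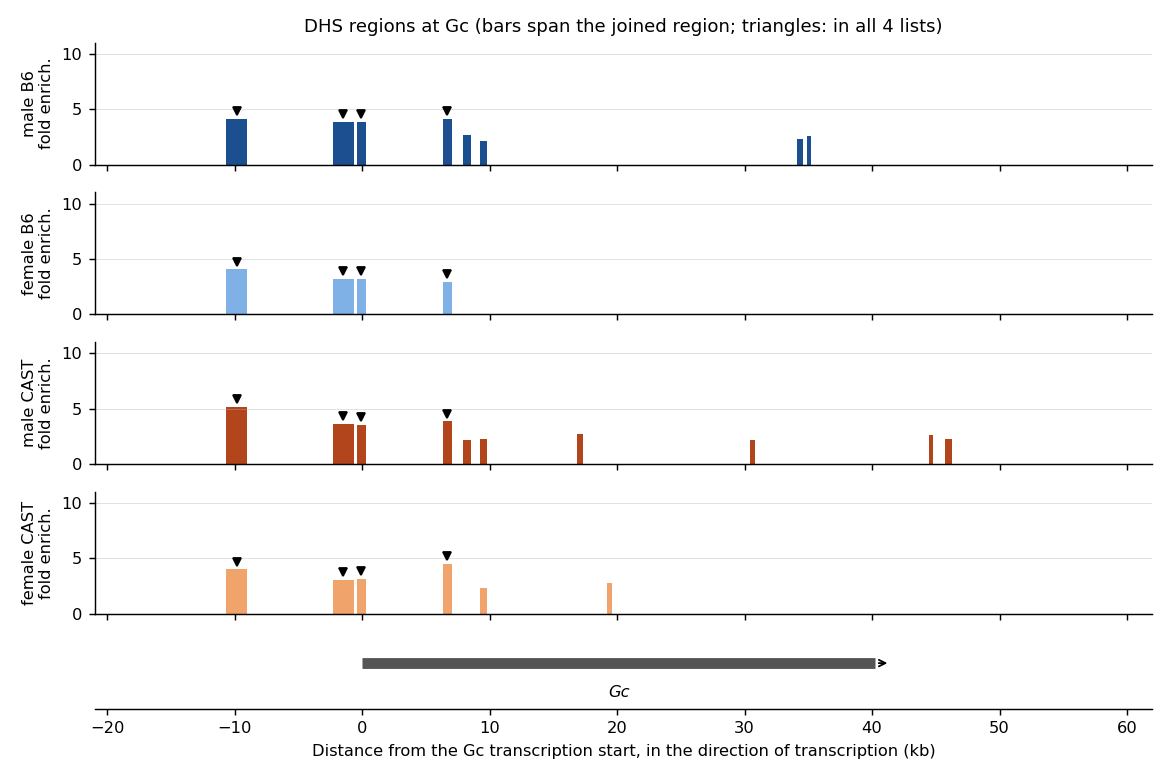
Fold enrichment at the summit (vertical axis of each panel) of DHS regions against distance from the Gc start in kb, read in the direction of transcription, 1 panel for each list, with bars as wide as the joined region. Triangles mark the 4 regions found in all 4 lists, which lie from 10.4 kb upstream to 6.6 kb downstream of the start.

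At Alb the remaining upstream regions were not past 1.5-fold in any comparison. The region 10.6 kb upstream, with the FOXA letters, read 3.46 in B6 males, 2.59 in B6 females, 3.27 in CAST males and 3.04 in CAST females, with scaled log2 ratios between -0.16 and 0.02. The region 3.5 kb upstream was found in 3 lists, at 2.44 in B6 males, 3.20 in CAST males and 3.12 in CAST females. At the edge of the rule, the members farthest out were the region 13.2 kb upstream of Alb and that in the 5830473C10Rik intron. The first region left out upstream of Alb lay 1239 bp outside the window and read 6.77 in B6 males, 4.47 in B6 females, 8.02 in CAST males and 5.94 in CAST females. The first left out downstream of Afm lay 1011 bp outside and was found in CAST males alone, at 2.18.

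Promoters of other genes with the most similar values, by distance over the 4 log2 fold enrichments each less its list's median, were Dnajc22, Fam165b and Vhl for Alb, at distances of 0.073, 0.077 and 0.082. They were Prpsap2, Fryl and Samhd1 for Afm, at 0.050, 0.079 and 0.084, and Rnpep, Trim25 and 6430527G18Rik for Gc, at 0.046, 0.067 and 0.083. With 4 values per promoter such likeness describes the level only.

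Among 13 genes of factors that act in liver, all 13 had a promoter DHS in every list. The share of all protein-coding promoters with a DHS was not counted. This count and the marker counts below thus have no background beside them. Zbtb20, which represses Afp after birth, read 8.79 in B6 males, 8.05 in B6 females, 8.73 in CAST males and 8.05 in CAST females. Zhx2, which has the same known effect, read 4.32, 2.81, 4.58 and 5.46 in the same order. In comparison, 16 other plasma protein genes had 112 regions chosen by the same 20 kb rule, of which 58 or 51.8% were in all 4 lists, against 34.4% for the family. They had from 4 regions each, at Ambp and Rbp4, to 12, at Apoh. Promoter DHS of hepatocyte marker genes were found at 8, 7, 8 and 6 of 8 genes in the order of lists above (B6 males, B6 females, CAST males, CAST females), those of Kupffer cells at 0 of 5 in every list, of sinusoidal endothelium at 5, 3, 2 and 1 of 5, of stellate cells at 1, 1, 1 and 0 of 4, and of bile duct at 1 of 4 in every list. The endothelial count was higher in the B6 lists, and its part in the strain differences was not tested.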

How the data were processed

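The DNase-seq data came from 16 liver libraries, 4 for each sex and strain, kept after the authors left out 1 library per group for its quality, and groups were taken from the library titles. The authors mapped unique reads with Bowtie2, B6 to mm9 and CAST to mm9 carrying CAST variants, returned CAST coordinates to mm9, merged the libraries of a group and called DHS with MACS2. They also removed blacklisted regions and peaks of duplicated reads. The deposited lists give per peak a fold enrichment, which is a ratio of summit pileup to local background (each plus 1), a −log10 p-value and a −log10 q-value. The deposited score column is 10 times the −log10 q-value and was not used. All values are fixed within 1 list. The study's methods name input DNA as the background of peak calling, and which reads set the local background of these lists was not determined here. Some summits in the CAST lists (4 in males, 2 in females) lie beyond their own peak, so CAST summit offsets may not have been converted, which moves a CAST summit by the net insertions or deletions in that peak.

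The lists do not hold sequencing depth, and the depth the study states was not used. Pileup and local background were solved from fold enrichment and p-value, and 99.86% of the male B6 pileups, and more in every other list, came out whole to within 0.02. Intervals of fold enrichment are 95% Poisson intervals of the pileup. They cover counting error only. Peaks were joined at 1 bp over the genome, the highest peak of a list giving the region its value. Log2 ratios were scaled to a median of 0 over all regions in both lists. Differences were called past 1.5-fold, and no test was possible with 1 list per group. Gene positions came from GENCODE for mm9. Regions were named at each promoter, past the fold limit, in the top 10% of every list, or in a single sex or strain in both levels of the other factor. The members and lists were chosen with earlier results of these data known. Python 3.11.15, numpy 2.4.6, pandas 2.3.3 and scipy 1.17.1 were used, and scripts were checked on simulated data. One gene of the factor list and 1 motif are not reported here.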

Additional observations from a re-analysis of the deposited data

How the results depend on the processing

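No paired analysis was possible because the 4 libraries of a group were merged before DHS were called, and for the same reason no library could be left out. Of 84 recomputed summaries, 69 stayed within their limits and 15 moved. With peaks below the median −log10 q of all lists left out, the family held 12 regions, 6 of them in all 4 lists, and 81.8% were shared between the sexes in B6 and 91.7% between strains in males. With lists cut to the 24888 best DHS, 75.0% were shared between strains in males. Without scaling, the family median log2 ratio of males to females was 0.28 in B6 and 0.10 in CAST. With the running median it was 0 in CAST. The number of family regions past the limit for males against females fell from 1 to 0 in B6 with a 2-fold limit, without scaling and with the running median, and to 0 in CAST with a 2-fold limit and with the running median. For CAST against B6, it fell to 0 in males with the 2-fold limit and rose to 3 in females without scaling. The cause was not tested. Joining by overlap of both peaks, joining within 500 bp, and windows of 10 or 50 kb moved no region count, share or median past its limits. The numbers of regions past 1.5-fold were not recomputed for these settings. A 10 kb window leaves out the region 13.2 kb upstream of Alb and that in the 5830473C10Rik intron. A 50 kb window takes in the region 36.1 kb upstream of Alb, described below. The genome-wide background was lowest in female CAST, at 7.94 reads, and how depth limits the weak regions was not tested.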

Other observations

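Beyond the windows, within 50 kb of the genes, the strongest DHS near the family lay 46.4 kb upstream of Alb, at 15.63 in B6 males, 11.96 in B6 females, 15.80 in CAST males and 14.92 in CAST females, with percentiles of 99.6 to 99.7 and summits within 28 bp. Another, 36.1 kb upstream of Alb, read 5.91, 3.61, 9.65 and 7.20 in the same order, and its scaled log2 ratio of CAST to B6 was 0.63 in males and 0.75 in females, so that it was past 1.5-fold in both sexes as was the region 13.2 kb upstream. Both were named after their values were seen, and neither is assigned to Alb by these data.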
